A study of Homo sapiens with 19 samples.

Results

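The set described here comprises 9 genes: the DNA methyltransferases DNMT1, DNMT3A and DNMT3B, their catalytically inactive relative DNMT3L, the hemimethylated-DNA reader UHRF1, the 3 TET dioxygenases TET1, TET2 and TET3, and the transcription factor FOXP1. Members were chosen by name, and their values are the spliced reads on the introns that GENCODE 29 annotates to them on GRCh38. These genes hold 273 of the 361515 annotated introns, and 220 of theirs carried at least 1 read in at least 1 of the 19 libraries (253219 of all introns did). The series holds 22760 genes with reads.

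All 19 libraries were made from ribosomal RNA-depleted RNA of human cell lines. A375 is a melanoma line, represented by 1 library each of total, nuclear and cytoplasmic RNA, and HEK293 is an embryonic kidney line with 1 library of total RNA. HUES66 is an embryonic stem cell line, with 1 wild-type (WT) library and 14 libraries from cells that received 1 ug/ml doxycycline for 24, 48 or 96 hr, controls included. The 14 comprised 3 controls, 3 knockdowns of all RBFOX2 transcripts (total KD), 4 of the N-short isoforms (N-short KD) and 4 of the N-long isoforms (N-long KD). RBFOX2 is an RNA-binding regulator of splicing, and the series title names the RNA-cleaving enzyme Cas13d. The libraries fall into 4 sets: 24 hr replicate 1 (total KD, N-short KD, N-long KD), 24 hr replicate 2 (control, N-short KD, N-long KD), 48 hr and 96 hr (each with all 4 treatments). No set holds 2 libraries of 1 treatment, and the labels do not say whether libraries came from separate cultures, so p-values measure the spread between these libraries. Whether the WT library is the missing control of 24 hr replicate 1 cannot be told from the labels.

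DNA methylation in vertebrates is placed on cytosines of CG dinucleotides by DNMT3A and DNMT3B, helped in germ cells and early embryos by DNMT3L, and is copied after replication by DNMT1, which UHRF1 recruits to hemimethylated sites. TET enzymes oxidise methylcytosine and so open the way to its loss. Several of these genes make isoforms that mark cell states. DNMT3A has a long isoform, DNMT3A1, and a short one, DNMT3A2, from a promoter inside the gene that is used in embryonic stem cells. DNMT3B omits exon 10, or exons 21 and 22 of its catalytic region, in many differentiated and tumour cells. FOXP1 carries a pair of alternative forkhead exons, 18 and 18b. Exon 18b is known as the stem cell exon, and it changes the DNA-binding preference of the protein.

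The DNMT3B exons on which isoform results turn are shown first, because their presence sets the isoforms of the most abundant member in HUES66 apart. They are given 5′ to 3′ on the transcribed strand, from the GRCh38 reference and the GENCODE 29 transcript DNMT3B-202.
DNMT3B exon 10: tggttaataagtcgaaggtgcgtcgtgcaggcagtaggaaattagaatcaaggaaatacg
DNMT3B exon 21: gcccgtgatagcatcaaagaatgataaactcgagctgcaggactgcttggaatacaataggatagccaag
DNMT3B exon 22: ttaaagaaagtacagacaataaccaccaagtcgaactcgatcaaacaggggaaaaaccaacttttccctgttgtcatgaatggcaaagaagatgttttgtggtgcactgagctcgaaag
DNMT3B exon 10 (chr20:32793536-32793595) has 60 nt and preserves the reading frame when skipped. Exons 21 (chr20:32805338-32805407, 70 nt) and 22 (chr20:32806209-32806327, 119 nt) together span 189 nt, so the frame is lost if 1 of them is skipped and kept if both are. The motif GCATG, the core of the sequence that RBFOX proteins bind, was found on neither strand of any of the 3 exons, and the introns around them were not searched. All 3 lie in coding sequence.

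The libraries held 6499183 to 27937149 junction reads, of which 96.7% to 98.3% lay on annotated introns. RBFOX2 stood at 126 to 133 CPM (junction reads of a gene, scaled to the same total of gene-assigned reads in every library) in the 3 controls, 51.0 to 83.3 in total KD, 113 to 128 in N-short KD and 76.7 to 92.7 in N-long KD. Its log2 difference from control was -0.82 in total KD (adjusted p = 8.7e-09), -0.57 in N-long KD (adjusted p = 2.7e-05) and -0.06 in N-short KD (adjusted p = 1.00), so the N-short libraries differ little from control in total RBFOX2. A list of 12 pluripotency genes summed to 4.94 CPM in A375, 40.4 in HEK293 and 2479 to 3186 in all 15 HUES66 libraries. In A375, of a list of 10 melanocyte-lineage genes, SOX10 (107 CPM), MITF (41.6), S100B (16.1) and EDNRB (9.25) were present. TYRP1 (1.39 CPM), PMEL (0.507), DCT (0.380) and GPR143 (0.254) were low, and MLANA and TYR had no read. Of 6 fibroblast or feeder genes, COL1A1, COL1A2 and THY1 made up nearly all of a sum of 515 to 786 CPM in HUES66, whereas DCN and LUM had no read in the WT library.

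In HUES66 the enzymes that set up new methylation, and TET1, were far more abundant than in the other lines, and TET2 was scarcer. Each line has 1 library, so no test applies, and the intervals given are exact 95% intervals that cover counting error only. DNMT3B stood at 5.2 CPM in A375 (3.73 to 7.05), 18.7 in HEK293 (15.96 to 21.7) and 1571 in HUES66 WT (1556 to 1586), which is 299-fold (223 to 421) and 83.8-fold (72.3 to 98.4) higher. DNMT3A stood at 26.6, 31.0 and 261.5 CPM in the same order, 9.80-fold (8.56 to 11.3) above A375 and 8.41-fold (7.48 to 9.54) above HEK293. The 2 de novo enzymes thus share the direction but not the size of the difference. DNMT3L, the cofactor, had no read in A375 or HEK293, where 3 reads would be 0.380 and 0.334 CPM, and 4 reads in HUES66 WT. Across the 14 treated libraries it had 0 to 2 reads each, so it was at the limit of detection in every line.

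The TET genes did not move together between lines. TET1, the TET enzyme of pluripotent cells, stood at 6.97 CPM in A375 (5.25 to 9.08), 22.8 in HEK293 (19.8 to 26.1) and 101 in HUES66 WT (97.4 to 105), with no overlap of the intervals. TET2 stood at 10.8, 12.7 and 2.46 CPM, 4.37-fold (3.13 to 6.14) lower in HUES66 WT than in A375 and 5.13-fold (3.76 to 7.09) lower than in HEK293. The TET2 intervals of A375 (8.61 to 13.3) and HEK293 (10.46 to 15.2) overlapped. TET3 ranged only from 21.0 (A375) over 25.8 (HUES66 WT) to 32.5 CPM (HEK293).

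The maintenance pair and FOXP1 differed less. DNMT1 stood at 636, 697 and 602 CPM in A375, HEK293 and HUES66 WT, and UHRF1 at 131, 180 and 131 CPM, so that for both genes HEK293 was the highest and the UHRF1 levels of A375 and HUES66 WT did not differ beyond counting error (ratio 1.00, 0.936 to 1.08). The treated controls, however, lay below A375 in UHRF1, with ratios of 0.833 (0.764 to 0.907) at 24 hr, 0.567 (0.517 to 0.621) at 48 hr and 0.884 (0.816 to 0.958) at 96 hr. FOXP1 stood at 66.4, 57.8 and 45.1 CPM. Counted with a threshold of 2-fold against both other lines, 3 of the 8 members with at least 20 reads were higher in HUES66 WT (DNMT3A, DNMT3B and TET1), where 11.9% of all genes were, and 1 was lower (TET2), where 13.2% were. Against single lines, 4 of 8 passed for A375 (45.1% of genes, 22.5% higher and 22.6% lower) and the same 4 for HEK293 (40.1%, 19.9% higher and 20.2% lower). Between HEK293 and A375 2 of 8 passed (38.1%), DNMT3B (3.56-fold) and TET1 (3.25-fold), both higher in HEK293. With a doxycycline-treated control in place of the WT library, the same 4 genes passed in the same direction against each line at each time. At 48 hr FOXP1 was in addition 2.03-fold below A375, and UHRF1 2.43-fold below HEK293.

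**Figure D1:**
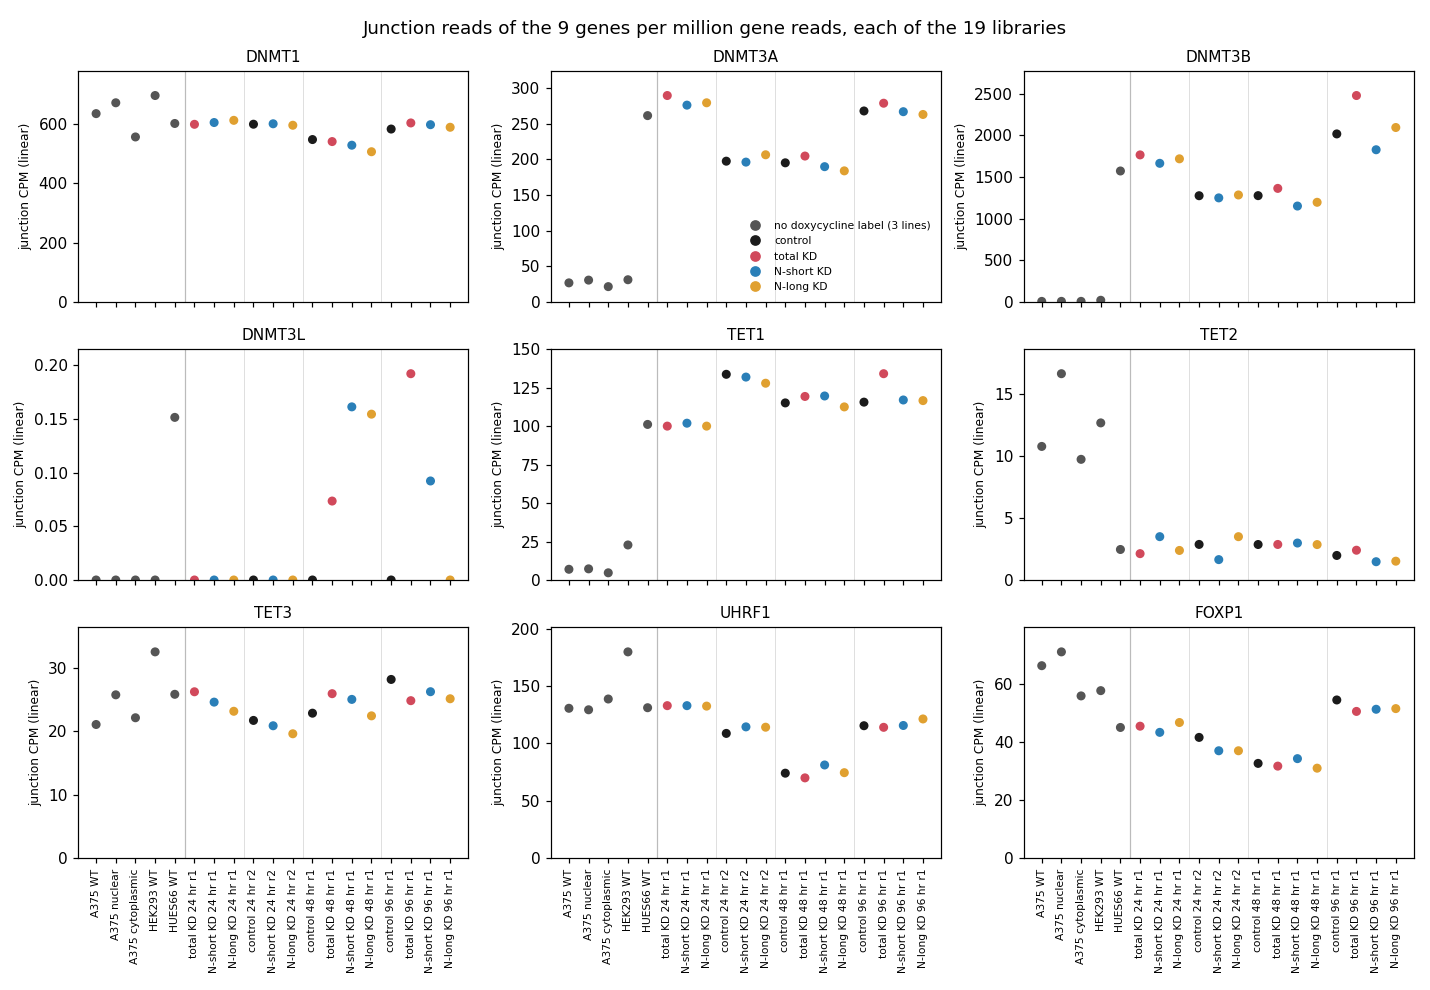
Junction CPM (linear axes) of the 9 genes in each of the 19 libraries, coloured by treatment. DNMT3B, DNMT3A and TET1 are high and TET2 low in all 15 HUES66 libraries, and DNMT3L never passes 4 reads.

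Genes with more introns collect more junction reads, so levels are compared between genes as the median CPM per intron of 1 reference transcript each. In HUES66 WT the order was DNMT3B (70.0), DNMT1 (14.2), DNMT3A (13.1), TET1 (8.90), UHRF1 (8.18), TET3 (2.65), FOXP1 (1.97) and TET2 (0.189). In A375 it was DNMT1 (15.7), UHRF1 (8.24), FOXP1 (3.36), TET3 (2.03), DNMT3A (1.08), TET2 (0.951), TET1 (0.507) and DNMT3B (0.254), and in HEK293 DNMT1 (17.2) and UHRF1 (10.8) also led, with DNMT3B last (0.945). The most abundant member in the stem cell line was therefore the least abundant of the 8 measured ones in both other lines. The predominant TET transcript per intron was TET1 in HUES66 and TET3 in A375 and HEK293.

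In A375, none of the 8 members with at least 20 reads differed 2-fold between nuclear and cytoplasmic RNA, where 41.9% of all genes did. TET2 had the highest nuclear to cytoplasmic ratio, 1.71 (1.33 to 2.18, 101 and 204 reads), followed by TET1 at 1.56 (1.06 to 2.23) and DNMT3A at 1.43 (1.20 to 1.70). UHRF1 was below 1, at 0.933 (0.861 to 1.01), and DNMT3B at 1.02 (0.669 to 1.49), both with intervals that include 1. With TMM factors the DNMT3B log2 ratio turned from 0.03 to -0.01. Because only spliced reads are counted, unspliced nuclear transcripts do not enter these ratios.

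The excess of DNMT3A in HUES66 lay in its short isoforms. The 5 introns that belong to the long isoform alone carried 1.19 CPM per intron in A375, 1.25 in HEK293 and 1.08 in HUES66 WT, and 0.767 to 1.40 in the 14 treated libraries. The 16 introns shared by long and short isoforms carried 1.20, 1.31 and 15.3 CPM per intron in the 3 lines, and 10.6 to 17.1 in the treated libraries. The long-only introns thus stood at a like level in the 3 lines, and the shared introns set HUES66 apart.

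At the first exon that both isoforms use (chr2:25248037-25248252), reads arriving from the long isoform were 9 of 9 in A375 (95% Wilson interval 70.1% to 100%), 14 of 16 in HEK293 (64.0% to 96.5%) and 20 of 204 in HUES66 WT (9.80%, 6.44% to 14.7%). The nuclear and cytoplasmic A375 libraries gave 6 of 6 and 21 of 22. The other 184 reads of HUES66 WT came from exons inside the gene: 74 from the second exon of DNMT3A-203, 54 directly from the first exon of DNMT3A-203 and DNMT3A-205, 49 from the first exon of DNMT3A-209 and 7 from that of DNMT3A-215. In the 14 treated libraries the long isoform took 7.56% to 24.6% of 43 to 119 reads, and no HUES66 library overlapped A375 or HEK293 in this share.

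**Figure D2:**
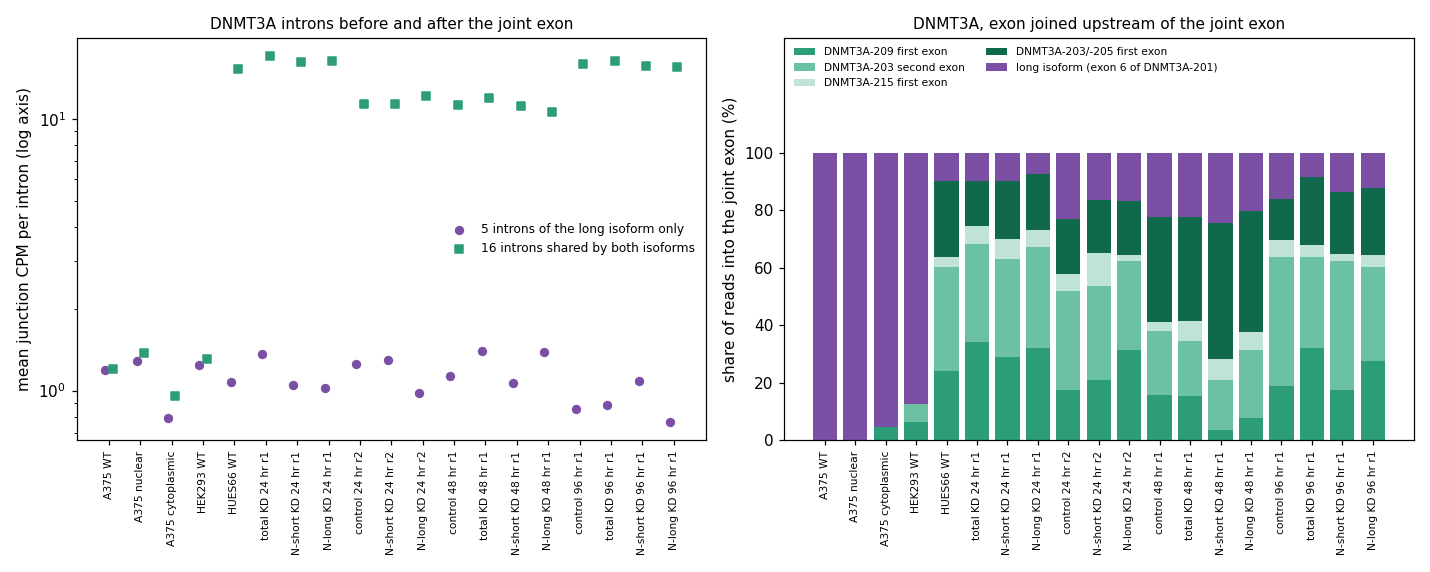
Left, mean junction CPM per intron (log axis) of the 5 long-only and the 16 shared DNMT3A introns in each library; right, share (%) of the reads entering the joint exon from each upstream exon, each library adding up to 100%. Long-only introns stay between 0.767 and 1.40 CPM while shared introns are above 10 CPM in all HUES66 libraries, and the 96 hr bars hold less of the DNMT3A-203/-205 first exon joined directly than the 48 hr bars.

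DNMT3B exon 10, absent from a common isoform of differentiated cells, was included in 98.1% (97.4% to 98.6%) of 2236 reads in HUES66 WT and in 97.7% to 100% in the treated libraries. Reads of an included exon, here and for the exons below, are the rounded mean of the junctions on its 2 sides. In A375 total RNA no read informed on exon 10. Skipping reads were 6 of 7 in cytoplasmic and 2 of 2 in nuclear A375 RNA, and 3 of 3 in HEK293, whose inclusion interval (0% to 56.2%) does not overlap that of any HUES66 library. Exons 21 and 22 were skipped together in 12.2% (10.9% to 13.6%) of 2252 reads of HUES66 WT and in 6 of 7 reads of HEK293 (48.7% to 97.4%). In A375 the counts were 1 of 3 (total), 0 of 1 (nuclear) and 3 of 5 (cytoplasmic). The intervals of the total library (6.15% to 79.2%) and the nuclear one overlap that of HUES66 WT, and the cytoplasmic one (23.1% to 88.2%) lies above it. Most DNMT3B reads of HUES66 thus held exon 10 and, at the other site, exons 21 and 22, while most of the few HEK293 reads skipped them.

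**Figure D3:**
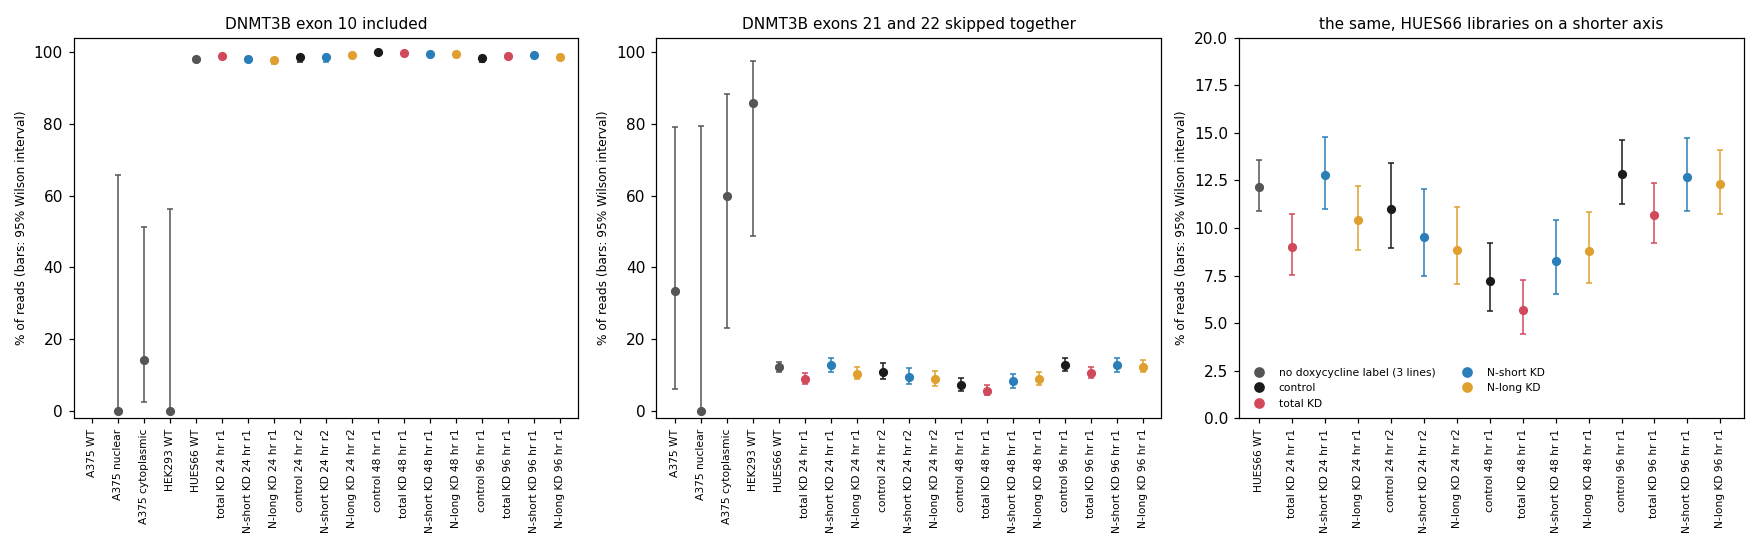
Share (%) of reads that include DNMT3B exon 10 (left) or skip exons 21 and 22 together (middle, and right for the HUES66 libraries alone on a shorter axis), with 95% Wilson intervals, 1 point per library. Joint skipping is lowest in the 48 hr libraries (5.68% to 8.81%) and 10.7% to 12.8% in those of 96 hr.

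FOXP1 exon 18b was found in HUES66 alone, apart from 1 nuclear A375 read. Its share of the reads of exons 18 and 18b was 0 of 35 in A375 (up to 9.89%), 0 of 43 in HEK293 (up to 8.20%) and 41 of 60 in HUES66 WT (68.3%, 55.8% to 78.7%). In the cytoplasmic A375 library it was 0 of 89. Controls had 68.8%, 70.6% and 61.3% at 24, 48 and 96 hr, total KD 70.6%, 81.0% and 84.6%, and N-long KD 81.1% and 78.9% at 24 hr, 72.2% at 48 hr and 80.6% at 96 hr. N-short KD had 61.3% and 61.9% at 24 hr, 83.3% at 48 hr and 68.0% at 96 hr. The 4 N-long KD libraries were above the 3 controls, total KD was at or above them, and N-short KD overlapped them, with 16 to 37 reads per library. The joining of exon 18b to the exon before it was not called in any knockdown. Its log2 odds differed from control by 1.47 (adjusted p = 0.60) after total, by 1.42 (adjusted p = 0.80) after N-long and by 0.55 (adjusted p = 1.00) after N-short knockdown. Reads that skip both exons were 0 to 3 in each library. Exon 18 was therefore still used in every HUES66 library, next to a larger share of 18b.

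Upstream in FOXP1 2 more acceptors are described. Into the acceptor of the intron at chr3:71299881, the donor at 71305877 supplied 37.5% (18.5% to 61.4%) of 16 reads in A375, 14.3% (4.01% to 39.9%) of 14 reads in HEK293 and 69.2% (59.9% to 77.1%) of 107 reads in HUES66 WT, so that the A375 and HUES66 WT intervals overlap. Into that at chr3:71112638, the donor at 71130497 supplied 65.4% of reads in A375, 63.9% in its cytoplasmic and 50% in its nuclear RNA, 19.05% in HEK293 and 3.70% (1.27% to 10.3%) in HUES66 WT. This choice, with a pooled use under 5% in the treated libraries, was named after its values were seen. Introns of FOXP1 that also belong to the annotated read-through gene AC097634.4, 21 of 47 with reads, carry 83.8% of its reads, and reads of these 2 genes cannot be told apart there.

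DNMT1 exon 5, an alternative exon of a minor DNMT1 transcript, was included in 26.1% (20.0% to 33.3%) of reads in A375, 18.7% (13.96% to 24.5%) in HEK293 and 20.6% (17.4% to 24.3%) in HUES66 WT. These intervals overlap, but that of cytoplasmic A375 RNA (29.4%, 24.9% to 34.4%, 347 reads) lies above those of HEK293 and HUES66 WT. Member splice sites were compared between lines where each library held at least 20 reads at the site. There, 4 of 15 acceptor choices measured differed by at least 20 percentage points between HUES66 WT and A375 (8.60% of all did). Of the donor choices 2 of 16 did (7.07%). Against HEK293 the counts were 2 of 16 acceptor (7.81%) and 2 of 12 donor choices (6.86%). Between HEK293 and A375 they were 2 of 9 acceptor (6.64%) and 0 of 10 donor choices (6.07%). Between the A375 fractions 0 of 7 acceptor (4.27%) and 0 of 10 donor choices (4.37%) passed. The 4 acceptor choices of HUES66 WT against A375 were FOXP1 introns, into the acceptors at chr3:70970806 and chr3:71112638. Introns into the same acceptor moved in opposite directions there, so these choices are not independent of each other.

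**Figure D4:**
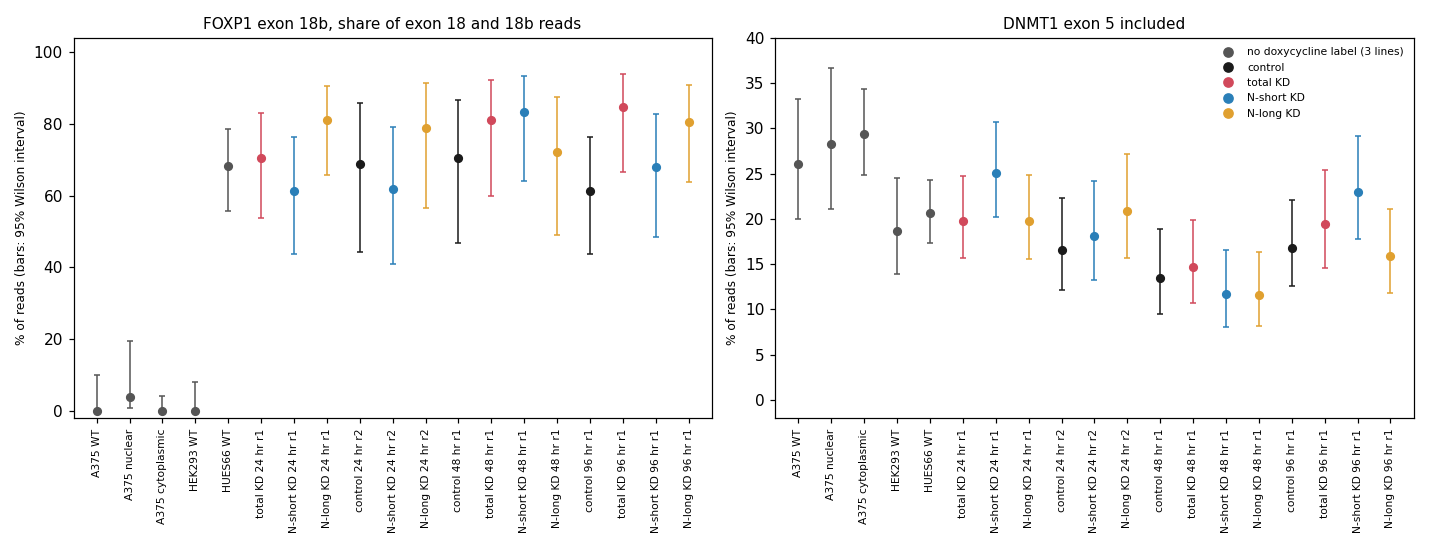
Share (%) of FOXP1 exon 18b among reads of exons 18 and 18b (left) and inclusion (%) of DNMT1 exon 5 (right), with 95% Wilson intervals, 1 point per library. Exon 18b lies between 61.3% and 84.6% in all HUES66 libraries and at or near 0 in the others; DNMT1 exon 5 is lowest in the 48 hr libraries (11.6% to 14.7%).

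After knockdown of RBFOX2 the members' levels differed from control by at most 0.15 on the log2 scale. The 3 knockdowns were compared with the same 3 control libraries, so their values are not independent of each other. In total KD 1 of 8 members tested passed an adjusted p of 0.05 (edgeR quasi-likelihood test with Benjamini-Hochberg adjustment over 13394 genes), where 2.26% of all genes did (1.02% higher and 1.24% lower), and it was DNMT3B, higher in the knockdown. DNMT3B stood at 1274, 1275 and 2016 CPM in the controls of 24 hr replicate 2, 48 hr and 96 hr, and at 1764, 1362 and 2477 CPM in total KD of 24 hr replicate 1, 48 hr and 96 hr. Total KD was the higher of the pair in both sets that hold both, yet the 48 hr library of total KD lay below the 96 hr control. The log2 difference was 0.15 (SE 0.04, adjusted p = 0.0483). This call was lost without the 24 hr or the 96 hr control or without the 48 hr or the 96 hr total KD library (log2 0.06 to 0.21 over all single omissions, adjusted p 0.60 without the 96 hr total KD library), and with DESeq2.

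The other 7 members differed from control by -0.11 (FOXP1) to 0.08 (TET1) on the log2 scale in total KD, with adjusted p of 0.58 or more. In N-short KD and N-long KD none of the 8 passed, where 0.00747% and 0.0224% of genes did, 1 and 0 members had an unadjusted p under 0.05, and DESeq2 also called 0. DNMT3B in N-short KD stood at 1663, 1248, 1150 and 1826 CPM (log2 -0.09, 95% interval -0.17 to -0.01, adjusted p = 1.00) and in N-long KD at 1717, 1283, 1195 and 2093 CPM (log2 0.00, -0.07 to 0.08). N-long exceeded N-short KD in all 4 sets (log2 0.09, SE 0.04, adjusted p = 0.92), a difference that did not pass, where 0.0149% of genes did. For TET2, with few reads, the interval in total KD reached from -0.66 to 0.48, so a change of that size was not detectable at this depth.

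**Figure D5:**
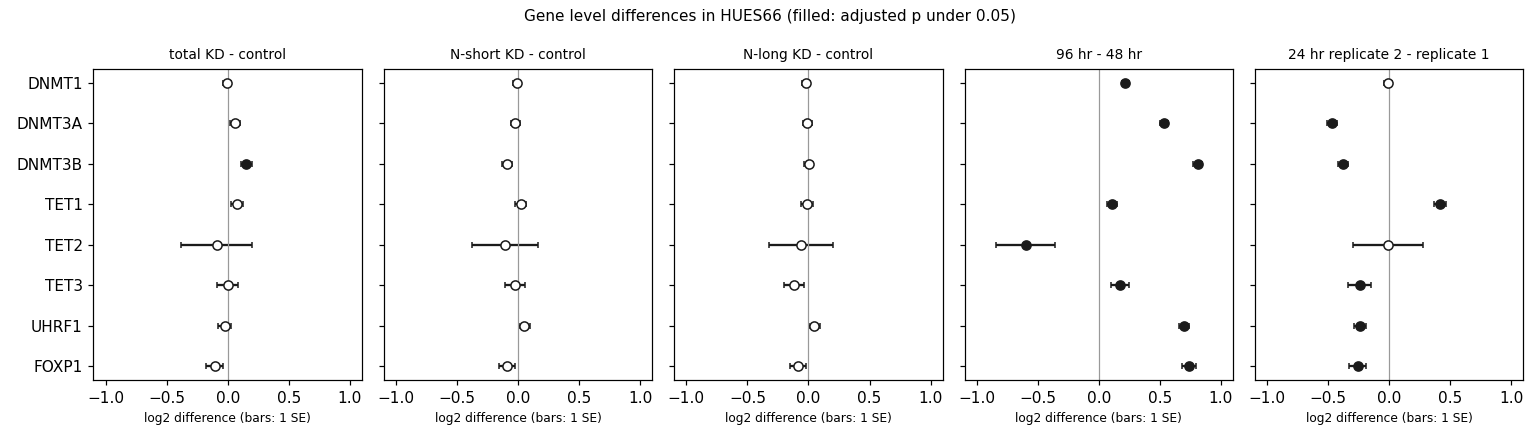
Log2 differences of the 8 tested members in HUES66 with bars of 1 SE, from 1 edgeR fit over 14 libraries; filled points have an adjusted p under 0.05. Knockdown panels lie near 0 apart from a small DNMT3B difference in total KD, whereas 7 members are higher and TET2 is lower at 96 hr than at 48 hr.

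At single introns, 4 of 151 tested member introns passed in total KD, where 0.459% of all introns did. All 4 belong to DNMT3B, with log2 differences of 0.23 to 0.29, and the count was 0 to 11 when single libraries were left out. Intron tests use the reads of each intron, so they carry the level of the gene, and introns of 1 gene are not independent. In N-short and N-long KD 0 of 151 passed (backgrounds 0.0108% and 0.0430%), with 12 and 2 introns at an unadjusted p under 0.05, and between N-long and N-short KD 0 of 151 (0.0306%), with 14. No member cassette exon (0 of 6), acceptor choice (0 of 26) or donor choice (0 of 24) passed with edgeR or limma in any of the 3 knockdowns or between N-long and N-short KD. The backgrounds in total, N-short and N-long KD and between the last 2 were 1.28%, 0.0145%, 0.466% and 0.349% for cassette exons, 0.812%, 0.0110%, 0.291% and 0.263% for acceptor choices, and 0.865%, 0.0172%, 0.378% and 0.246% for donor choices. At an unadjusted p under 0.05 there were 0, 1, 0 and 0 cassette exons, 2, 0, 0 and 1 acceptor choices and 5, 2, 1 and 0 donor choices. Joint skipping of DNMT3B exons 21 and 22 came near in total KD: 5.68% against 7.23% in control at 48 hr and 10.7% against 12.8% at 96 hr, with 9.01% in the 24 hr total KD library. The test was of the donor at 32802471, the skipping intron against the intron into exon 21 (log2 odds -0.43, SE 0.14, adjusted p = 0.14). At this donor the skipping share was 5.05% against 6.38% at 48 hr and 9.63% against 11.9% at 96 hr. Skipping was lower in both sets that hold control and total KD, but the values of the groups overlap. With the WT library entered as the control of 24 hr replicate 1 this donor choice was called (log2 odds -0.44, adjusted p = 0.020). That place is an assumption, since the labels give the WT library no time and no doxycycline. The same skipping intron, tested at its acceptor after exon 22, was not called in the main fit. In the authors' deposited table for 24 hr the inclusion difference of exon 21, control minus total KD, was -0.097 with a p of 0.0307 and an adjusted p of 1. Their tables gave -0.063 (p of 0.210) at 48 hr and -0.046 (p of 0.337) at 96 hr. For exon 22 they gave -0.059, -0.034 and -0.040 at 24, 48 and 96 hr (p of 0.0591, 0.279 and 0.254). No 24 hr set here holds both a control and a total KD library. Their 9 tables list 75 to 106 member events each, none with an adjusted p under 0.05, where 0.00218% to 0.125% of all events had one, and 1 to 7 with a p under 0.05.

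Another FOXP1 choice, between acceptors 3 nt apart that follow the donor at chr3:70977827, differed by a log2 odds of 1.89 (SE 0.59) between total KD and control, with an adjusted p of 0.12. An intron from that donor to 70977723, the acceptor giving the longer intron being 70977720, was used in 84.8%, 75% and 82.2% of reads in total KD and in 57.6%, 63.6% and 48.8% in controls. The 3 total KD libraries were all above the 3 controls, but the choice was not called over all donor sites. This choice was named after its values were seen.

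Log2 differences of the 8 tested members were larger between the 48 hr and the 96 hr set than in any knockdown. Time and library set are the same thing in this comparison, since each time has 1 set, and cannot be told apart. All 8 tested members passed, 7 higher and 1 lower at 96 hr, where 59.5% of all genes passed (29.5% higher and 30% lower). DNMT3B stood at 1275, 1362, 1150 and 1195 CPM in control, total, N-short and N-long KD at 48 hr and at 2016, 2477, 1826 and 2093 CPM at 96 hr. Every 96 hr library was above every 48 hr library, and the log2 difference was 0.81 (SE 0.04, adjusted p = 1.2e-19).

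DNMT3A stood at 195, 205, 190 and 184 CPM at 48 hr and at 268, 279, 267 and 263 CPM at 96 hr (log2 0.53, SE 0.03, adjusted p = 5.8e-16). UHRF1 stood at 74.1, 70.0, 81.3 and 74.6 CPM and at 115.5, 114, 116 and 121 CPM (log2 0.70, SE 0.04, adjusted p = 6.0e-16). FOXP1 stood at 32.7, 31.8, 34.4 and 31.1 CPM and at 54.6, 50.6, 51.4 and 51.6 CPM (log2 0.74, SE 0.06, adjusted p = 5.8e-13). In these 3 genes, too, the 2 sets did not overlap. DNMT1 was 507 to 548 CPM at 48 hr and 584 to 604 CPM at 96 hr (log2 0.22, SE 0.03, adjusted p = 3.3e-08).

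The TET genes changed less clearly. TET1 (113 to 120 CPM at 48 hr, 116 to 134 at 96 hr) had a log2 difference of 0.11 (adjusted p = 0.028) and TET3 (22.4 to 25.9, and 24.8 to 28.1) one of 0.17 (adjusted p = 0.0345), and in both the sets overlapped. TET2 was 2.86 to 2.98 CPM at 48 hr and 1.48 to 2.40 CPM at 96 hr, without overlap (log2 -0.60, SE 0.24, adjusted p = 0.033). These 3 calls were lost with DESeq2 and without the 48 hr control or the 48 hr N-long KD library. Omitting the 48 hr total KD library ended the calls of TET1 and TET2, omitting the 96 hr control or N-long KD library those of TET2 and TET3, omitting the 96 hr total KD library that of TET1, and omitting either N-short KD library that of TET2.

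The 2 sets of 24 hr libraries, which share a time, differed as well. DNMT3B stood at 1663 to 1764 CPM in replicate 1 and at 1248 to 1283 CPM in replicate 2 (log2 -0.38, adjusted p = 2.1e-08), DNMT3A at 276 to 290 and 196 to 206 CPM (log2 -0.47, adjusted p = 4.8e-11) and TET1 at 100 to 102 and 128 to 134 CPM (log2 0.41, adjusted p = 1.2e-07). In all, 6 of 8 members passed in this contrast, which was added after the data were seen, where 34.3% of genes did. The others were UHRF1 (log2 -0.24), FOXP1 (-0.26) and TET3 (-0.24, adjusted p = 0.039). The TET3 call was lost with DESeq2, without a low-count filter and without any 1 of the 6 libraries (adjusted p 0.064 to 0.12 without a library), and FOXP1 counted on the introns of its name alone was not called (log2 -0.33, adjusted p = 0.11). DNMT1 and TET2 were at -0.01 and -0.01. Of member introns 53 of 151 passed (11.6%), 10 higher (5.74%) and 43 lower (5.86%) in replicate 2. Among them were 22 of 24 of DNMT3B and 17 of 25 of DNMT3A, all lower, and 8 of 11 of TET1, all higher. Intron counts repeat the level difference of their gene here too. No acceptor (0 of 26, background 0.795%), donor (0 of 24, 0.847%) or cassette choice (0 of 6, 1.12%) passed, with 4, 6 and 1 at an unadjusted p under 0.05 and 0 called by limma. DNMT3A and DNMT3B of the 48 hr set were thus close to those of 24 hr replicate 2, and those of the 96 hr set to 24 hr replicate 1 or above it.

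Marker sums of other cell types were read in the same sets. The 6 fibroblast or feeder genes (COL1A1, COL1A2 and THY1 leading, DCN and LUM with no read in the WT library) summed to 727 to 786 CPM at 48 hr and 515 to 593 at 96 hr. Of the 10 melanocyte genes, 8 with reads summed to 240 to 337 and 101 to 117 CPM. That sum is made up of EDNRB (25.8 to 255 CPM over the 14 libraries), PMEL (36.8 to 73.1) and GPR143 (10.8 to 21.0), while SOX10, MITF, S100B, TYRP1 and DCT did not pass 2.17 CPM. The 11 early differentiation genes summed to 0.662 to 1.37 and 0.872 to 2.72 CPM, and the 12 pluripotency genes summed to 2984 to 3081 and 2947 to 3186 CPM. The first 2 sums did not overlap between the sets and the last 2 did. The part of these in the members' differences was not tested. In bulk RNA, fewer cells of a type and less RNA per cell cannot be told apart.

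Splicing of the members also differed between the 48 hr and 96 hr sets, where 2 of 6 cassette exons (16.4% of all), 9 of 26 acceptor choices (13.3%) and 6 of 24 donor choices (12.9%) passed. A site with only 2 introns counts both as mirror images. Joint skipping of DNMT3B exons 21 and 22 was 7.23%, 5.68%, 8.28% and 8.81% at 48 hr and 12.8%, 10.7%, 12.7% and 12.3% at 96 hr in control, total, N-short and N-long KD. It was higher at 96 hr in 4 of 4 pairs, by 4.64 percentage points (SD 0.90), with a log2 odds difference of 0.79 (SE 0.12, adjusted p = 1.4e-09), a call lost with limma (adjusted p = 0.094). The 24 hr libraries, at 8.86% to 12.8%, bridged the 2 sets. Introns that skip exon 10 had 0, 1, 3 and 4 reads at 48 hr and 20, 13, 8 and 17 at 96 hr (log2 2.89, SE 0.46, adjusted p = 8.8e-08), which is the largest difference of any tested member intron and is named after its value was seen. Those skipping reads also carry the level of DNMT3B, which differed by a log2 of 0.81. Exon 10 inclusion remained at or above 98.3% at both times.

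The exons used in the short isoforms of DNMT3A differed as well. From the first exon of DNMT3A-203, 69.7%, 72.4%, 73.0% and 67.5% of reads went directly to the joint exon at 48 hr, and 34.5%, 41.5%, 40% and 38.6% at 96 hr. The remaining reads went to its second exon (chr2:25249657-25249724), whose inclusion rose by a log2 odds of 1.88 (SE 0.32, adjusted p = 3.5e-05). This difference is larger than the spread within either set, and the 24 hr libraries (32.5% to 42.9%) and HUES66 WT (45.0%) were on the side of 96 hr. At the acceptor of the joint exon, use of the DNMT3A-209 first exon rose (log2 odds 1.38, adjusted p = 0.0067), a call lost with limma and without the 48 hr N-short or N-long KD library (adjusted p 0.057 to 0.072). The share of the long isoform was 22.2%, 22.4%, 24.6% and 20.3% at 48 hr and 15.9%, 8.33%, 13.5% and 12.3% at 96 hr, lower in 4 of 4 pairs but not called (log2 odds -1.0, adjusted p = 0.064).

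FOXP1 shifted between upstream exons. The donor at 71305877 supplied 66.7%, 63.6%, 56.8% and 53.7% of reads into the acceptor at 71299881 at 48 hr and 83.6%, 85.4%, 83.9% and 95.7% at 96 hr, without overlap (log2 odds 2.19, SE 0.45, adjusted p = 4.0e-05). Its share of exon 18b did not shift in 1 direction (2 of 4 pairs higher). DNMT1 exon 5 was included in 13.5%, 14.7%, 11.7% and 11.6% of reads at 48 hr and in 16.8%, 19.4%, 23.0% and 15.9% at 96 hr (log2 odds 0.63, SE 0.18, adjusted p = 0.012). Each 96 hr value was above each 48 hr value, but the call was lost with limma and without either N-short KD library. Of single introns, 89 of 151 passed, 89 higher and 0 lower (32.7% of all introns passed, 16.4% higher and 16.3% lower). These counts carry the level of each gene and are not a measure of splicing alone, and introns of 1 gene are not independent. They were 24 of 24 of DNMT3B, 19 of 25 of DNMT3A, 16 of 42 of DNMT1, 14 of 17 of UHRF1, 14 of 22 of FOXP1 and 1 each of TET1 (of 11) and TET3 (of 10). The TET1 intron, between exons 8 and 9 (chr10:68673046-68681398), had 4, 6, 8 and 9 reads at 48 hr and 27, 24, 18 and 22 at 96 hr (log2 1.87, SE 0.30, adjusted p = 1.7e-07), while the median over the TET1 introns was 0.06.

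Genes that work with the members were read from 5 lists. Among 23 maintenance and targeting partners, 22 with at least 20 reads in the 3 lines, 6 were at least 2-fold higher in HUES66 WT than in both other lines and 0 lower (median fold 1.58, against 0.887 for all genes). Of 12 methyl-CpG readers 1 was higher and 3 lower (median 0.566), of 20 genes of oxidised base removal and TET cofactors 3 and 3 (median 1.23), of 15 genes of methyl donor supply 0 and 0 (median 0.996) and of 19 FOXP relatives, partners and exon regulators 4 and 5 (median 1.35). Among the partners, ZFP57, which guards methylated imprints, stood at 5.91 CPM in HUES66 WT and had no read in A375 or HEK293, and KDM1B, a demethylase of histone H3, was lower in HUES66 WT (21.2 CPM) than in A375 (36.3) and HEK293 (90.4). Of the readers, MBD2 was at 12.6 CPM in HUES66 WT against 74.4 and 129, and of the TET cofactor genes IDH1, which makes the 2-oxoglutarate that TET enzymes need, was at 515 against 76.2 and 55.0. The epithelial splicing regulator ESRP1 was at 301 CPM in HUES66 WT and at 0.127 and 8.01 CPM in A375 and HEK293, and the MBNL family splicing regulator MBNL2 at 1.17 against 49.1 and 19.1. In total KD, of all 13394 tested genes 137 were called higher and 166 lower. Of 16 methyl donor genes 3 rose there (SHMT2 by a log2 of 0.50, MTHFD2 by 0.48, SHMT1 by 0.31), enzymes that feed carbon from serine into the folate cycle. The list's median was near that of all genes in this contrast. NSD2, a histone H3 lysine methyltransferase, was the only 1 of 23 partners to fall (log2 -0.42), and PTBP2, a neuronal splicing repressor, fell beside RBFOX2 itself (log2 -0.21) among 18 FOXP relatives and regulators. Readers (0 of 12) and oxidised-base genes (0 of 20) had no call.

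At 96 hr against 48 hr, 14 of 23 partners rose and 3 fell (median log2 0.24, against -0.01 for all genes), where 29.5% of all genes rose and 30% fell. They include DPPA3, which keeps UHRF1 from chromatin (log2 2.03, SE 0.49), at a low level of 0.0868 to 1.54 CPM over the 14 treated libraries. The histone methyltransferase EZH2 (0.94), CXXC1, which binds unmethylated CG (0.48), and the corepressor TRIM28 (0.41) also rose. Of the oxidised-base genes 8 rose and 6 fell, with TDG, the glycosylase that removes oxidised methylcytosine, at 0.86 and GADD45B at -1.97, GADD45A at -0.70 and the mitochondrial IDH2 at -0.84. Methyl donor genes gave 5 and 6 of 16, with MAT2A, which makes S-adenosylmethionine, at 0.56. FOXP relatives and regulators gave 9 and 2 of 18, with FOXP4 at 1.04, MBNL3 at 0.98 and SRSF2 at 0.61. FOXP2, at 1.42 (SE 0.42), had only 0.147 to 2.21 CPM over the 14 treated libraries. Readers gave 4 and 3 of 12. The shares of the oxidised-base, methyl donor and reader lists lie near those of all genes. Time and library set cannot be told apart here either. In 24 hr replicate 2 against replicate 1, 4 of 23 partners were higher and 7 lower, where 4591 of all 13394 genes passed. Several genes named above were among the largest differences of their list there. They were MAT2A (log2 -0.67), SRSF2 (-0.58), FOXP4 (-0.57), CXXC1 (-0.41), TRIM28 (-0.27), TDG (-0.24), IDH2 (0.32) and GADD45B (1.43).

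As a description over the 19 libraries, which share lines and sets, the genes with the highest Pearson r of log2 CPM with a member were SIPA1L1 (0.999), CAMKV (0.998) and CADPS (0.998) for DNMT3B, CYP2S1 (0.998), CD24 (0.995) and GPR143 (0.995) for DNMT3A, and CARMIL1 (0.998), ADAMTS19 (0.996) and PSIP1 (0.996) for TET1. These are the 3 members at least 2-fold higher in HUES66 WT than in both other lines. The other members had lower top values: 0.968 for TET2 (EBF1), 0.956 for FOXP1 (AP4B1), 0.953 for DNMT1 (SF3B3), 0.928 for UHRF1 (H2AFY) and 0.833 for TET3 (BRPF1), among 13010 genes compared.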

How the data were processed

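Junction reads of 19 libraries were analysed. The authors deposited raw counts of spliced reads per junction, without normalization, 1 file per library. The submitters' processing notes name STAR 2.7.1 and SAMtools 1.9, and the build is hg38. Filters are not given in the sources used here. The p-value, adjusted p-value and inclusion difference columns (a scale other than counts, from -1 to 1, control minus knockdown) in 9 comparison tables were computed by the authors and deposited, and 69 per-library columns of these tables were not used here.

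Junctions were matched by position and strand to GENCODE 29 introns and summed per gene. FOXP1 was counted over all its annotated introns, a choice made after the data were seen, and other genes over introns of 1 gene name. CPM divides reads by the gene-assigned reads of the library, without further scaling. One edgeR 4.0.16 model covered the 14 treated libraries (R 4.3.3, quasi-likelihood test, TMM factors, filterByExpr), with library set and knockdown as terms, for genes, introns, cassette exons, and acceptor and donor choices (the reads of 1 intron against the others at the same site, or inclusion against skipping, as paired columns). Use was tested where a site had a mean of at least 20 reads and a pooled share of 2% to 98%. Benjamini-Hochberg adjustment ran over all features of a contrast, with a threshold of 0.05, and differences are log2 values from this fit. The replicate block, here library set, comes from the library names: deviations from the knockdown means had a median r of 0.562 between libraries that share a set (18 pairs) and -0.179 otherwise (55 pairs). Tests were also run on simulated data with planted changes. The simulation held no other difference between library sets, so it does not measure error rates where sets differ.

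Lines and fractions have 1 library each. Ratios had 0.5 reads added and were counted with at least 20 reads in both libraries together; intervals are exact (levels, ratios) or Wilson (shares). Python 3.11.15, limma 3.58.1 and DESeq2 1.42.0 were used for the rest and for alternatives, which also covered normalization, filters, the WT library as a control and the omission of each library. Named genes are the 9 members, RBFOX2, the genes of a list with the largest called differences (at most 4 per contrast) or line ratios, tested exons and introns with a pooled use of 5% to 95%, and the 3 most similar genes. The members and lists were chosen with earlier results of these data known. Sequences of the DNMT1 and FOXP1 exons are not reported here.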

Additional observations from a re-analysis of the deposited data

Results flagged for a closer look

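In 28 groups of 4 libraries, 2 held a library far from the other 3, by a gap of more than 0.829 of the range. Each group mixes times and sets that differ in level, so no chance rate is given. DNMT1 in N-short KD was 529 CPM at 48 hr and 598.2 to 605.5 CPM in the other 3 libraries; the other 48 hr libraries of DNMT1 were also low, at 507 to 548 CPM. DNMT3L in N-long KD was 0.154 CPM at 48 hr, which is 2 reads, and 0 in the other 3 libraries. With 3 libraries at 0, any read in the remaining library leads to this flag.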

How the results depend on the processing

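Without the replicate block 0 members were called in total KD and 5 (DNMT1, DNMT3A, DNMT3B, UHRF1 and FOXP1) at 96 hr against 48 hr, and 0 member introns in total KD. DESeq2 called 0 and 5 members in these contrasts, and relative log expression factors 0 in total KD. Without a low-count filter 1 member (DNMT3B) was called between N-long and N-short KD. With the WT library as a further control 15 member introns and 2 donor choices were called in total KD. For 96 hr against 48 hr, limma called 4 acceptor choices, 2 donor choices and 1 cassette exon, and a minimum of 50 reads 1 cassette exon. With the 48 hr control in place of the WT library 2 members were at least 2-fold lower than in A375 and 2 than in HEK293. Omitting single libraries gave 0 to 1 members and 0 to 11 introns in total KD, and 5 to 7 members and 1 to 3 cassette exons at 96 hr. Of the other counts, 321 stayed within 1.5 times. Of the remaining values, 662 stayed, 141 moved, 66 lost and 2 gained a call. They cover single genes and sites and also calls counted over all features. A moved ratio or share left the interval of its main value, and a moved count changed by more than 1.5 times. Ratios near 1 changed sign, as UHRF1 in HUES66 against A375 (log2 0.005 with WT, -0.82 with the 48 hr control). Low counts limit what can be seen of DNMT3L, of DNMT3B isoforms in A375 and HEK293, of TET2 in HUES66 (15 to 65 reads a library) and of FOXP1 exons 18 and 18b (16 to 60 reads).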
